A study of Rattus norvegicus with 6 samples.

Results

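The 10 genes described here encode the multifunctional calcium/calmodulin-dependent protein kinases: Camk1, Camk1d, Camk1g, Camk2a, Camk2b, Camk2d, Camk2g, Camk4, Camkk1 and Camkk2. They were found by symbol among 25629 genes measured by single-nucleus RNA sequencing of punches from the nucleus accumbens (ventral striatum) in adult Sprague-Dawley rats aged 90 to 120 days. All 10 were present, each under 1 identifier. The family was chosen by a measured value, the higher level of Camk1g after naloxone over all nuclei of these same libraries, so the naloxone values of Camk1g are given as a description and carry no p-value. Terms that compare its change between classes or sexes do carry adjusted p-values. They use the same counts and are not independent of that choice.

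Every rat of both groups had self-administered heroin, first for 7 days at 1 response per infusion (FR1), then for 4 days at 3 responses (FR3), with a progressive ratio test on day 12 and FR3 sessions on days 13 and 14. The saline group then received saline and the naloxone group received naloxone, an opioid receptor antagonist, and brains were taken 1 h later. Tissue from 12 rats, 6 of each sex, went into 6 libraries, each holding male and female tissue: saline replicates 1, 2 and 3 and naloxone replicates 4, 5 and 6. No rat without heroin was analysed here, so no comparison separates an effect of heroin from its absence. Because nothing in the labels gives a dose of either drug or ties a library to named animals, the spread between libraries is that between small pools of rats.

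When calcium enters a neuron, it binds calmodulin, and the complex switches on these kinases. The CaMK kinases (Camkk1 and Camkk2) phosphorylate and so raise the activity of CaMKI (Camk1, Camk1d, Camk1g) and CaMKIV (Camk4), and CaMKIV acts in the nucleus on transcription factors such as CREB. CaMKII, built from subunits encoded by Camk2a, Camk2b, Camk2d and Camk2g, forms a large holoenzyme that can keep itself active by autophosphorylation and is abundant at synapses of forebrain neurons, where it is best known for its role in synaptic plasticity.

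The libraries held 55739350 to 76272798 UMIs (unique molecular identifiers, which count captured RNA molecules) in 64260 barcodes, against 44592 nuclei stated in the labels, and 58960 nuclei were used after filtering. Median depth was 4521.5 to 6064 UMIs per nucleus in the saline libraries and 4277 to 6506 in the naloxone libraries. Naloxone replicate 5 had a median of 0.557% mitochondrial UMIs, and the other libraries had 0.152% to 0.340%. Pairs of libraries shared 19 to 45 barcodes, at most 0.408% of the smaller library. Clustering without the kinase genes gave 39 clusters. Markers named 20 of them, with 38547 nuclei in 14 classes, while 13 clusters stayed unnamed and are called by a leading gene, and 6 clusters with 5267 nuclei were set aside as mixed. In the mixed clusters 44.8% of nuclei carried both Xist and Y-linked UMIs, against 3.81% in the named clusters. Defining markers were present in the spiny projection neuron classes used below, the principal output neurons of the striatum: Drd1-like (5804 nuclei) and Drd2-like (5270 nuclei). A Plcz1-led cluster (2071 nuclei) held Drd1, Pdyn, Chrm4 and Slc35d3 but had Drd3 among its leading genes, so it was kept apart from the Drd1-like class and given no cell type name.

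The kinase genes differed widely in where they were found. Levels are CPM, the UMIs of a gene divided by all UMIs of that class in a library and scaled to a common total, averaged over the 6 libraries in 24 classes and clusters that share no nuclei. Classes come from clustering the same nuclei, so the order of levels is a description with no test, and levels are compared between classes for 1 gene and never between genes.

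Of the upstream kinases, Camkk2 was highest in spiny neurons, at 81.5 ± 15.7 CPM in the Ckmt2-led cluster of the Drd1-like class, 79.5 ± 16.2 CPM in its Ebf1-led cluster and 75.6 ± 11.3 CPM in the Drd2-led cluster of the Drd2-like class (SD, n = 6 libraries). These 3 overlapped in their libraries. The small Itga11-led cluster of the Drd2-like class had only 15.3 ± 7.40 CPM of Camkk2, near the 16.5 ± 2.32 CPM of astrocyte-like nuclei. Camkk1 was scarce throughout, with 2294 UMIs in all libraries together. Its highest mean, 26.9 ± 7.52 CPM, was in the unnamed AABR07000398.1-led cluster, and every other class or cluster averaged 10.8 CPM or less.

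Among the CaMKI and CaMKIV genes, Camk1d was highest in microglia-like nuclei, at 1048 ± 138 CPM, with no library overlapping those of the next class, astrocyte-like nuclei at 621 ± 65.6 CPM. Oligodendrocyte-like nuclei had 10.4 ± 4.49 CPM, so the gene spanned 101-fold between classes. Camk4 ran from 551 ± 74.9 CPM in the Drd2-led cluster and 422 ± 59.8 CPM in the Ckmt2-led cluster to 7.70 ± 2.83 CPM in astrocyte-like nuclei. Endothelial-like nuclei had 205 ± 56.8 CPM, above Chst9-like spiny neurons at 145 ± 13.4 CPM, and cholinergic interneuron-like nuclei had 26.5 ± 9.67 CPM. Of the endothelial-like nuclei, 10.9% carried both Xist and Y-linked UMIs, at a median of only 1509 UMIs, against 3.81% over the named clusters. How much of their Camk4 came from other cells was not tested. Camk1 varied least of the family, 5.17-fold, from 71.2 ± 6.48 CPM in Chst9-like spiny neurons to 13.8 ± 7.72 CPM in committed oligodendrocyte precursor-like nuclei.

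Camk1g was a low-abundance gene of neurons and oligodendrocyte precursors, with 9300 UMIs in all. It was highest in the unnamed Ano1-led cluster (58.8 ± 12.7 CPM), in the Ebf1-led cluster of the Drd1-like class (58.7 ± 19.0 CPM) and in oligodendrocyte precursor-like nuclei (49.95 ± 6.60 CPM), which overlapped one another. The Ckmt2-led Drd1-like cluster had 20.4 ± 7.98 CPM. Astrocyte-like, oligodendrocyte-like and microglia-like nuclei lay at 3.25 ± 1.86, 2.85 ± 1.15 and 1.95 ± 2.48 CPM.

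The CaMKII genes differed in the classes that held them. Camk2a ran from 321 ± 58.2 CPM to 393 ± 28.9 CPM over the spiny neuron clusters and was 20.6 ± 7.89 CPM in astrocyte-like nuclei. Camk2b ran from 165 ± 13.2 to 303 ± 12.8 CPM over the same clusters and was 23.3 ± 8.61 CPM in astrocyte-like nuclei. Its highest level, with no overlap, was 401 ± 32.2 CPM in the unnamed low-depth AABR07000398.1-led cluster. Endothelial-like nuclei, with the high share of Xist and Y-linked nuclei given above, had 154 ± 51.8 CPM. Camk2g ran the other way: 1167 ± 277 CPM in astrocyte-like nuclei, with no overlap with any other class, and 19.7 ± 5.91 CPM in the Ebf1-led cluster, its lowest value. Camk2d was highest in microglia-like nuclei, at 853 ± 157 CPM, and in the unnamed Slc17a8-led cluster, at 799.9 ± 37.2 CPM. It was lowest in the Drd2-like class, with 49.6 ± 10.5 CPM in the Drd2-led and 19.7 ± 14.5 CPM in the Itga11-led cluster, while the Ckmt2-led Drd1-like cluster had 264 ± 24.1 CPM.

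**Figure D1:**
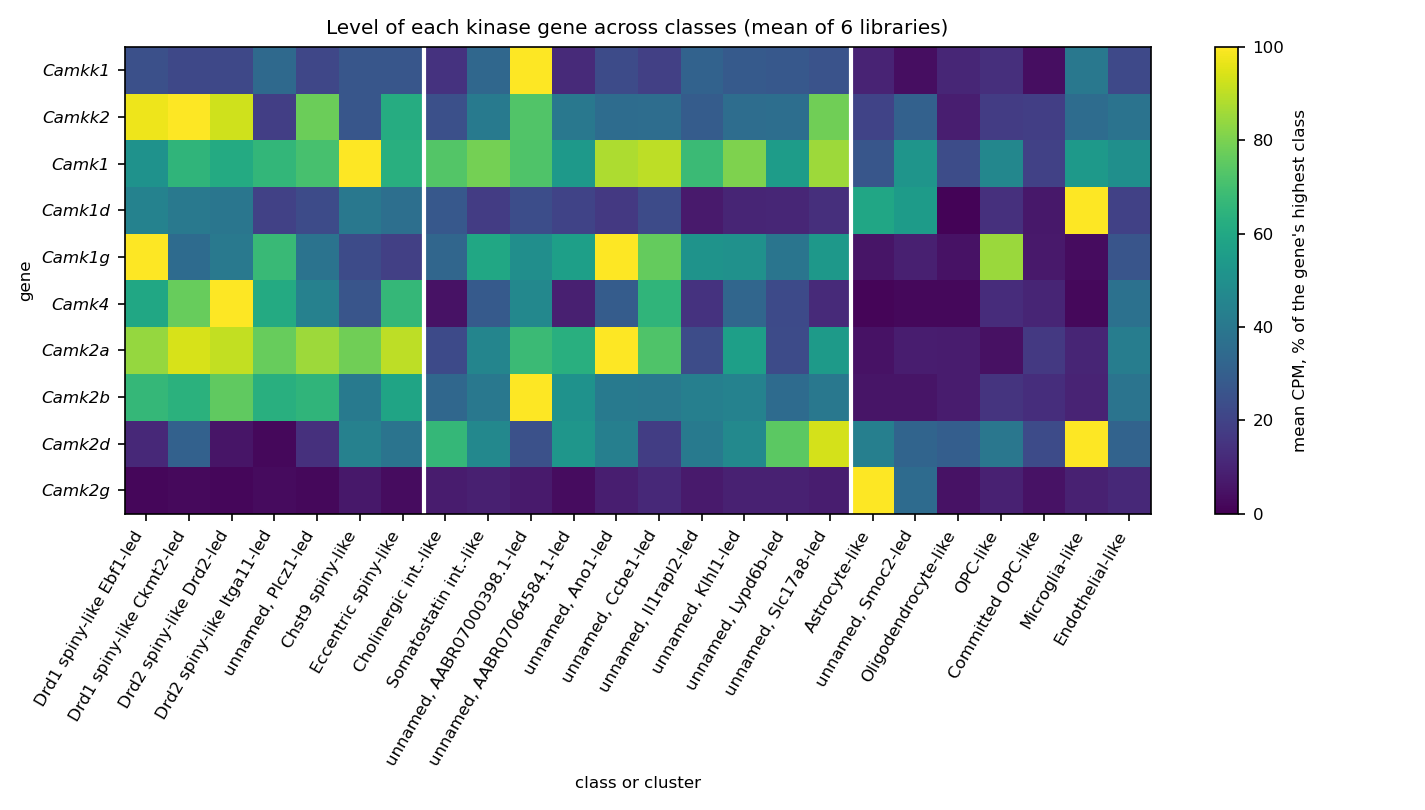
Mean level of each kinase gene (rows of the map) in 24 classes and clusters (columns: spiny neurons, then other neurons and an unnamed low-depth cluster, then glia and endothelial-like nuclei, divided by white lines), as a percentage of the highest class of that gene. Camk2g stands out in astrocyte-like nuclei, Camk1d and Camk2d in microglia-like nuclei, and Camk2a and Camk2b in most neuron columns. Camk4 stands out in the Drd1-like, Drd2-like, Eccentric-like and Ccbe1-led columns. These last 3 genes have intermediate levels in endothelial-like nuclei, which for Camk4 lie above many of the neuron columns.

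Camk1g was higher after naloxone than after saline in the spiny neurons of both dopamine receptor classes, and most so in the Drd2-like class. CaMKI gamma, its product, is a membrane-anchored CaMKI form of neurons. Over all nuclei the gene stood at 18.2, 19.4 and 19.0 CPM in saline replicates 1, 2 and 3 and at 29.1, 32.8 and 29.5 CPM in naloxone replicates 4, 5 and 6, a fitted log2 change of 0.68 ± 0.07 (SE). The groups did not overlap. This is the contrast that chose the family, and 0.0519% of 17348 genes were called in it.

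The bases before the annotated start of Camk1g and of Camk2g, the other kinase gene whose level changed, are shown because they differ in composition. The sequences are RefSeq's for build GRCr8 (the files' build, per the submitters' processing notes, is mRatBN7.2), 5′ to 3′ along the gene, and capitals mark CpG dinucleotides. Camk1g lies on chromosome 13, minus strand, and the bases shown are chr13:107430231-107430480, and Camk2g lies on chromosome 15, plus strand, with chr15:3553106-3553355.
Camk1g: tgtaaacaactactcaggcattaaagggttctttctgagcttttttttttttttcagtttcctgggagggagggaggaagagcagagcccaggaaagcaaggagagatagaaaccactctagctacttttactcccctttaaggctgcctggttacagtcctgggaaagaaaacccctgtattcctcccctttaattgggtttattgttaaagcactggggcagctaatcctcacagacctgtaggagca
Camk2g: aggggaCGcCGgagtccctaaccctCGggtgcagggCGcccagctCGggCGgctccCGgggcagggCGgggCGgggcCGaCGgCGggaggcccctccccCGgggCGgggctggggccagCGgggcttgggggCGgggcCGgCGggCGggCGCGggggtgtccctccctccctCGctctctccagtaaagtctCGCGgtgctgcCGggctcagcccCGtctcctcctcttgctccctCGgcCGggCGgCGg
The 250 bases of Camk1g held 0 CpG and 45.2% G or C, and those of Camk2g held 30 CpG and 80.8% G or C, against medians of 5 CpG and 51.2% over 33469 promoters of that table. Promoters were found for 8 of the 10 genes, all but Camk1d and Camkk2. The 300-base windows from 250 bases before to 50 after the start were searched on both strands for the CREB core TGACG, the full palindrome TGACGTCA, which contains that core, and the AP-1 motif TGANTCA, since CREB and AP-1 factors are classical nuclear end points of calcium signalling. TGACG was in the windows of 3 of the 8 genes, Camk1, Camk2a and Camkk1, and in 21.2% of all promoters. The windows of Camk1 (chr4:148047324-148047348, minus strand) and Camkk1 (chr10:58135694-58135718, plus strand) are shown around it, with the match in capitals.
Camk1: agtctcctgcTGACGaccaaagggc
Camkk1: gccgggggcgTGACGcgtcggggcc
Neither longer motif was in any of the 8 windows, and they were in 1.83% and 7.33% of all promoters. None of the 3 motifs was in the windows of Camk1g or Camk2g, which says only that these letters are not in those bases. Of Camk1, Camk2a and Camkk1, none was called in the naloxone comparison in any class tested.

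In Drd2-like nuclei Camk1g stood at 15.1, 14.0 and 16.3 CPM in the saline libraries (106, 138 and 157 UMIs). In the naloxone libraries it stood at 28.4, 39.7 and 36.5 CPM (166, 325 and 298 UMIs). Each naloxone library lay above each saline library, and the fitted log2 change was 1.23 ± 0.13 (SE), the highest of the 7 named classes where the gene passed the filter on low counts. Both clusters of the class moved alike in direction: 14.7 ± 0.810 to 32.9 ± 5.82 CPM in the Drd2-led cluster and 20.8 ± 6.05 to 58.6 ± 8.17 CPM in the Itga11-led cluster (SD, n = 3 libraries each).

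In Drd1-like nuclei Camk1g stood at 24.0, 23.1 and 22.1 CPM after saline and at 40.5, 45.5 and 31.3 CPM after naloxone. The groups did not overlap, and the log2 change was 0.76 ± 0.12 (SE). The Plcz1-led cluster had 15.5, 13.3 and 16.3 CPM after saline and 31.2, 29.1 and 28.5 CPM after naloxone, a log2 change of 0.97 ± 0.16 (SE). Within the Drd1-like class the Ebf1-led cluster, where the gene was most abundant, went from 45.2 ± 5.33 to 72.2 ± 18.1 CPM, and the Ckmt2-led cluster from 14.1 ± 1.25 to 26.8 ± 6.13 CPM. In both clusters the groups did not overlap.

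The fitted change of Camk1g was positive in 19 of the 20 classes and clusters where the gene passed the count filter. Outside the classes above it was smaller, and in several the groups overlapped. Chst9-like spiny neurons, a class marked by Chst9, Grm8 and Oprm1, averaged 11.1 CPM after saline, with a highest library of 13.3 CPM, and 15.7 CPM after naloxone, with a lowest library of 15.3 CPM (log2 change 0.50), and the unnamed Klhl1-led cluster from 25.2 ± 3.18 to 34.4 ± 1.26 CPM, also without overlap. The groups also separated in the unnamed Slc17a8-led (26.3 ± 3.72 and 36.5 ± 8.31 CPM), AABR07064584.1-led (27.7 ± 4.87 and 38.6 ± 1.77 CPM), AABR07000398.1-led (23.9 ± 5.18 and 34.4 ± 2.44 CPM) and Lypd6b-led (20.6 ± 0.877 and 25.05 ± 1.62 CPM) clusters. Eccentric-like spiny neurons (10.03 ± 1.86 and 12.1 ± 2.81 CPM), somatostatin interneuron-like nuclei (35.9 ± 9.52 and 34.2 ± 6.78 CPM), cholinergic interneuron-like nuclei (19.3 ± 5.12 and 19.7 ± 5.86 CPM) and oligodendrocyte precursor-like nuclei (46.05 ± 3.74 and 53.9 ± 7.03 CPM) overlapped between groups. The gene was under the count filter in astrocyte-like, oligodendrocyte-like, microglia-like, endothelial-like and committed precursor-like nuclei. In microglia-like nuclei 3 of the 6 libraries had 0 UMIs of it, which allows up to 8.65 to 14.9 CPM in those libraries.

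**Figure D2:**
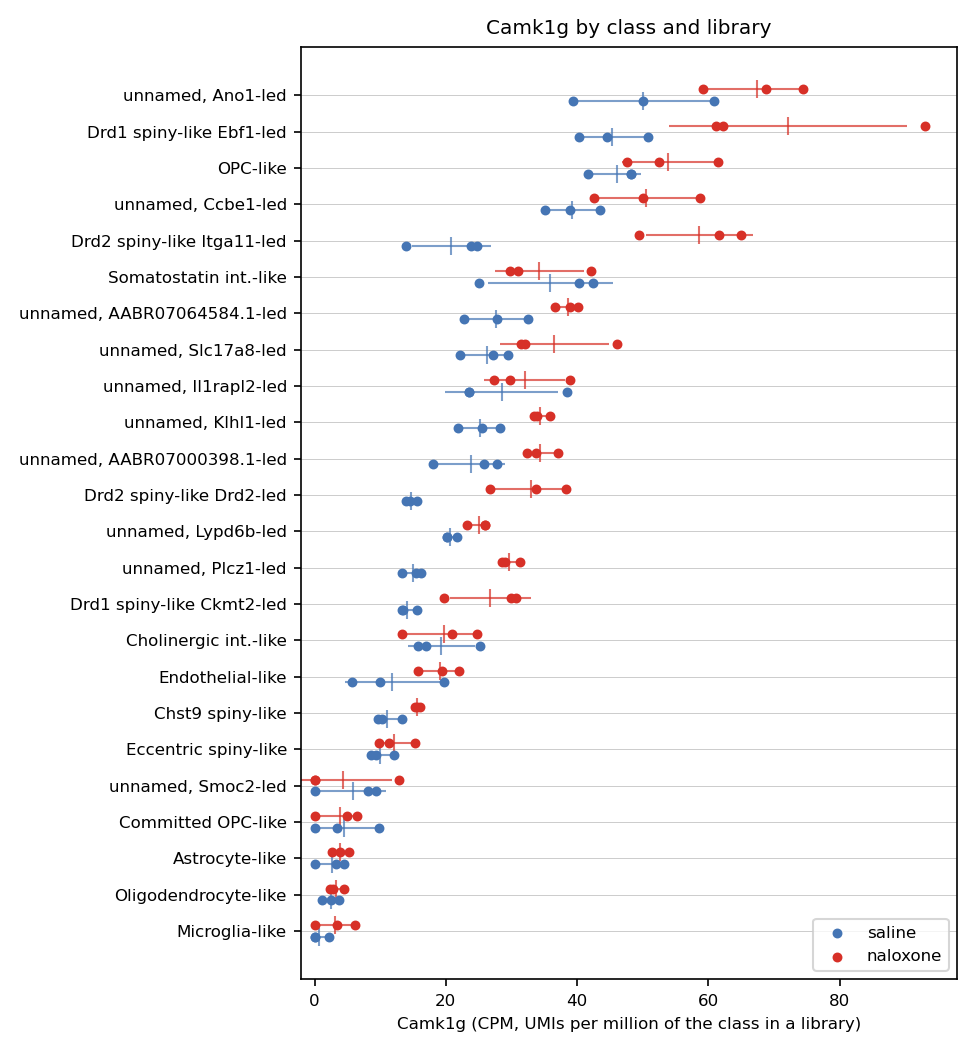
Camk1g level (CPM, horizontal axis) in each library for 24 classes and clusters ordered by mean; blue points are saline and red points naloxone libraries, and bars show mean and SD over 3 libraries. The Drd2-led, Itga11-led, Plcz1-led, Ckmt2-led and Ebf1-led clusters separate by group, as do Chst9-like nuclei and the Klhl1-led, Slc17a8-led, AABR07064584.1-led, AABR07000398.1-led and Lypd6b-led clusters, while glia other than oligodendrocyte precursors lie near 0.

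A class by treatment term sets the change in 1 class against that in all other nuclei of the same libraries, and so tests whether they differ. For Camk1g the term is no independent test. The same counts chose the family, and Drd2-like nuclei carried 18.1% of the difference over all nuclei. Its adjusted p-values are therefore read as a description. The change of Camk1g in Drd2-like nuclei exceeded that in the other nuclei by 0.63 ± 0.12 on the log2 scale (SE; edgeR adjusted p = 0.0284), a term for which 0.45% of genes were called. It was higher in the class than in the rest with each library left out, but passed the threshold only without naloxone replicate 4 (0.73, adjusted p = 0.00221). Without saline replicate 1, 2 or 3 or naloxone replicate 5 or 6 the adjusted p was 0.0572 to 0.159, so this call rests on most of the libraries. The Drd2-led cluster alone gave 0.57 ± 0.12 (edgeR adjusted p = 0.0413; 0.342% called) and the Itga11-led cluster 0.92 ± 0.31 (edgeR adjusted p = 0.146; 1.36% called).

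Against the other neurons alone (a comparison chosen after seeing the data), the Drd2-like term was 0.80 ± 0.14 (edgeR adjusted p = 0.0147; 0.672% of genes called). These other neurons are the Chst9-like, Eccentric-like, cholinergic-like and somatostatin-like classes and most unnamed neuron clusters. They leave out Drd1-like, Drd2-like, Plcz1-led and AABR07000398.1-led nuclei, so they are not all remaining neurons. Set directly against Drd1-like nuclei, the Drd2-like change was 0.49 ± 0.14 larger, with an edgeR adjusted p of 0.107 (1.19% called). A difference between the receptor classes thus did not pass. The 95% interval, which is not adjusted for the number of genes tested, was 0.21 to 0.78. The Drd1-like term was 0.06 against all other nuclei (edgeR adjusted p = 0.945; 0.054% called) and 0.31 against the other neurons (edgeR adjusted p = 0.517; 0.00662% called). The Plcz1-led term was 0.29 (edgeR adjusted p = 0.849; 0.174% called) and 0.52 (edgeR adjusted p = 0.385; 0.122% called).

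The rise over all nuclei was spread over several neuron groups. Of the 11.6 CPM by which the naloxone mean exceeded the saline mean, Drd1-like nuclei carried 18.9%, Drd2-like nuclei 18.1%, the Klhl1-led cluster 15.2%, the Ano1-led cluster 8.75%, the mixed clusters 9.78%, the Lypd6b-led cluster 7.02% and the Plcz1-led cluster 6.11%. Part of these shares is composition: the Klhl1-led cluster held 7.13% of UMIs in the saline and 10.3% in the naloxone libraries. With the share of each class held at its mean over the 6 libraries, Camk1g was 19.4 ± 1.25 CPM after saline and 30.3 ± 2.34 CPM after naloxone. Drd1-like nuclei then carried 24.1% of the difference, Drd2-like nuclei 23.3%, the Plcz1-led cluster 6.99%, the Klhl1-led cluster 7.26%, the Ano1-led cluster 4.84%, the Lypd6b-led cluster 2.26% and the mixed clusters 17.5%. Drd1-like, Drd2-like and Plcz1-led nuclei together held 54.4% of the difference at fixed shares, with 35.9% of UMIs after saline and 32.1% after naloxone.

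Counted per nucleus, more nuclei carried the transcript and fewer lacked it. Among Drd2-like nuclei 11.9 ± 3.23% had a Camk1g UMI after saline and 23.6 ± 6.09% after naloxone, and among Drd1-like nuclei 17.7 ± 3.43% and 28.8 ± 2.55% (SD, n = 3 libraries). Pooled over the 3 libraries of a group, without thinning, nuclei with 3 or more UMIs made up 0.268% of 2988 Drd2-like nuclei after saline and 2.72% of 2282 after naloxone. These pooled shares have no spread between libraries and depend on depth. Median depth in the class was 6885.5 to 11370 UMIs in the saline and 7782 to 13667.5 in the naloxone libraries. Nuclei were then thinned to 1000 UMIs, and those with fewer were left out. The Drd2-like shares were 1.74 ± 0.373% and 3.23 ± 0.252%, without overlap between the groups (0.0567% of nuclei left out after naloxone). The Drd1-like shares were 2.38 ± 0.508% and 3.87 ± 1.37%, which overlapped. Oligodendrocyte-like nuclei, which should lack the gene, had 0.231 ± 0.0904% and 0.404 ± 0.115% after thinning, at median depths of 1372 to 2090 UMIs after saline against 6885.5 to 11370 in Drd2-like nuclei. Of the oligodendrocyte-like nuclei, 7.45% to 22.8% were left out in the saline libraries and 11.5% to 28.1% in the naloxone libraries. Their shares thus describe the deeper nuclei only. Summed oligodendrocyte markers in Drd2-like nuclei were 119 to 183 CPM after saline and 123 to 199 CPM after naloxone, overlapping between the groups.

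Because each library pools sexes, nuclei read as female (Xist only) or male (Y-linked genes only) come from different rats of the same library. Splitting them this way showed that the rise was not even among the naloxone rats. In Drd2-like nuclei read as female, Camk1g stood at 15.9, 13.5 and 19.0 CPM after saline and at 41.4, 40.4 and 20.2 CPM in naloxone replicates 4, 5 and 6. In those read as male it stood at 15.2, 15.3 and 14.4 CPM after saline and at 19.1, 37.2 and 51.2 CPM in naloxone replicates 4, 5 and 6. The female nuclei of naloxone replicate 6 and the male nuclei of naloxone replicate 4 were thus near the saline levels, with exact Poisson intervals (95%, counting error only) of 15.96 to 25.2 and 14.6 to 24.5 CPM, while the opposite sex of the same libraries was far above.

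In Drd1-like nuclei the same pair was the lowest of each sex, at 54.4, 45.3 and 19.7 CPM in female and 30.2, 48.4 and 41.3 CPM in male nuclei of naloxone replicates 4, 5 and 6, against 17.1 to 27.9 CPM over both sexes after saline. The female nuclei of naloxone replicate 6 lay within that saline range. In the Plcz1-led cluster the values were 35.4, 27.1 and 20.9 CPM in female and 29.5, 28.4 and 35.6 CPM in male nuclei, where intervals are wide (14.96 to 28.5 CPM for the female nuclei of replicate 6). Since the low sex differed between libraries, the sex by treatment term over all nuclei was 0.10 ± 0.29 for Camk1g (edgeR adjusted p = 0.961). In that term 0 of 16438 genes were called (0% called, 990 at an unadjusted p under 0.05; edgeR only).

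**Figure D3:**
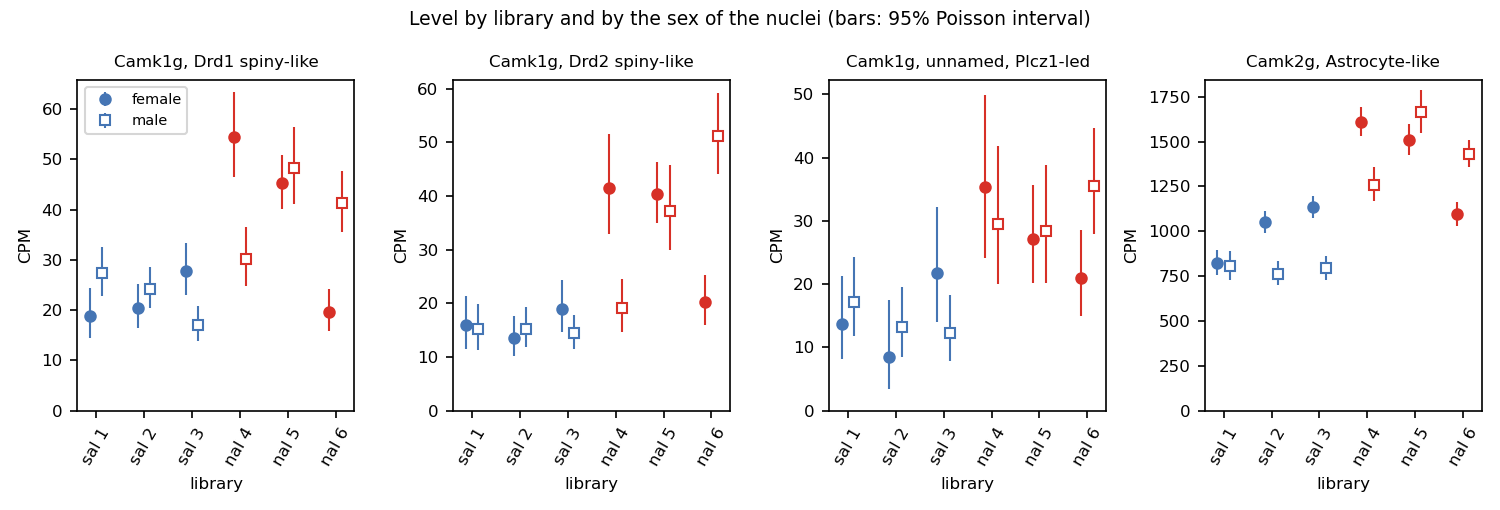
Level (CPM) of Camk1g in Drd1-like, Drd2-like and Plcz1-led nuclei and of Camk2g in astrocyte-like nuclei, for female (filled circles) and male (open squares) nuclei of each library, blue for saline and red for naloxone; bars are exact 95% Poisson intervals for counting error. In Drd2-like nuclei the female nuclei of naloxone replicate 6 and the male nuclei of replicate 4 sit near the saline points, at 20.2 and 19.1 CPM.

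Camk2g, encoding the gamma subunit of CaMKII, rose in astrocyte-like nuclei, the class in which it is most abundant. It stood at 858, 929.9 and 989.9 CPM in saline replicates 1, 2 and 3 and at 1439, 1503 and 1282 CPM in naloxone replicates 4, 5 and 6. No libraries of the groups overlapped, and the log2 change was 0.64 ± 0.09 (SE; edgeR adjusted p = 0.00376), among 0.908% of 11011 genes called in that class. The call held with each library left out (adjusted p 0.00112 to 0.0476).

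The class also differed in makeup: its Atp13a4-led cluster, where Camk2g is higher, held 22.6%, 17.9% and 28.4% of the class in the saline libraries and 32.1%, 30.8% and 35.4% in the naloxone libraries, without overlap. The change of the whole class was larger than that of either cluster. Both astrocyte-like clusters gave higher values after naloxone (each cluster alone was examined after seeing the data): 706 ± 38.1 against 1026 ± 131 CPM in the Prdm16-led cluster (log2 change 0.57, edgeR adjusted p = 0.0216; 0.317% called) and 1657 ± 146 against 2159 ± 149 CPM in the Atp13a4-led cluster (log2 change 0.40, edgeR adjusted p = 0.143; 0.345% called). The summed level of the 8 astrocyte markers in the class also differed, from 13258 to 13562 CPM after saline and from 15224 to 15687 CPM after naloxone, as did that of 8 microglia markers, 33.2 to 44.9 and 46.5 to 58.4 CPM. Their part in the Camk2g difference was not tested. Median depth in the class overlapped, at 2104 to 3416 and 2027 to 3428.5 UMIs per nucleus.

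By sex, astrocyte-like Camk2g was 823, 1051 and 1133 CPM in female and 808, 764 and 795 CPM in male nuclei of the saline libraries, and 1611, 1509 and 1094 CPM in female and 1260.03, 1666 and 1430.3 CPM in male nuclei of naloxone replicates 4, 5 and 6. All male naloxone values exceeded all male saline values. The female nuclei of naloxone replicate 6, low for Camk1g in spiny neurons, were also inside the female saline range for Camk2g, and the sex by treatment term was 0.41 ± 0.19 (edgeR adjusted p = 0.970; 0.0108% called). Male astrocyte-like nuclei alone gave a log2 change of 0.92 ± 0.12 (edgeR adjusted p = 0.00255; 0.427% of genes called) and female nuclei 0.52 ± 0.15 (edgeR adjusted p = 0.312; 0.0112% called).

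Camk2g was not raised detectably more in astrocyte-like nuclei than elsewhere: its class by treatment term there was 0.23 ± 0.11 (edgeR adjusted p = 0.606). Over all nuclei it stood at 78.8, 93.2 and 92.8 CPM after saline and 127, 127 and 117 CPM after naloxone, without overlap, with a log2 change of 0.48 ± 0.07 that missed the threshold in edgeR (adjusted p = 0.0681) and passed it in DESeq2 (adjusted p = 1.65e-05). Its fitted change was positive in 11 of 12 named classes, from 0.65 ± 0.13 in Drd1-like nuclei (17.6, 23.5 and 21.1 against 31.2, 39.9 and 27.3 CPM; edgeR adjusted p = 0.0708, called by DESeq2) to -0.21 in endothelial-like nuclei. In the Ckmt2-led cluster of the Drd1-like class it was called higher (0.64 ± 0.13, edgeR adjusted p = 0.0498; 0.359% of genes called), while its Drd2-like value was 0.61 ± 0.17 (edgeR adjusted p = 0.136).

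The other 8 kinase genes were not called in the naloxone comparison by edgeR, over all nuclei or in any of the 26 classes and clusters tested, and DESeq2 called none of them where it gave an adjusted p. In the classes not given elsewhere, the genes called were 0.213% in Chst9-like, 0.00955% in Eccentric-like, 0.0136% in somatostatin-like and 0.0192% in endothelial-like nuclei, and 0% in cholinergic-like and committed precursor-like nuclei. The unnamed Ano1-led, Klhl1-led, Smoc2-led, Lypd6b-led, Ccbe1-led and Slc17a8-led clusters had 0.113%, 0.111%, 0.191%, 0.0539%, 0.0438% and 0.0398%, the Ebf1-led cluster 0.0576%, the Plcz1-led cluster 0.136% and the Drd2-led cluster 0.419%. Over all nuclei their log2 changes ran from -0.11 for Camk2b to 0.14 for Camk2d, and 0 of the 8 had an unadjusted p under 0.05. Of the upstream kinases, Camkk2 was 45.7 ± 2.36 CPM after saline and 50.05 ± 13.4 CPM after naloxone over all nuclei, and in Drd1-like nuclei its log2 change was 0.29 ± 0.11 (edgeR adjusted p = 0.276). Camk4, the nuclear kinase, was 260.1 ± 9.05 against 243 ± 63.7 CPM over all nuclei, with naloxone libraries on both sides of the saline range at 201, 317 and 212 CPM. Camk2a and Camk2b, the main CaMKII subunits of forebrain neurons, stood at 277 ± 16.3 against 268 ± 49.6 CPM and 202 ± 8.98 against 189 ± 23.5 CPM over all nuclei.

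Camk2d, the delta subunit, is the gene of these 8 that came closest in a class. In Drd2-like nuclei, where it is scarce, it stood at 32.1, 41.3 and 47.0 CPM after saline and 58.6, 52.2 and 52.7 CPM after naloxone, without overlap, with a log2 change of 0.45 ± 0.12 that did not pass (edgeR adjusted p = 0.117). In Eccentric-like spiny neurons it stood at 319.6, 333 and 399.6 CPM after saline and 309, 318 and 289 CPM after naloxone. The class by treatment term of Camk2d in Eccentric-like nuclei was -0.35 ± 0.09 (SE; edgeR adjusted p = 0.0274; 0.31% of genes called), a lower change than in the other nuclei. Without saline replicate 2 or 3 or naloxone replicate 4 or 6 that term was -0.34 to -0.27 and its adjusted p rose to between 0.0865 and 0.613, so the call depends on those libraries.

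**Figure D4:**
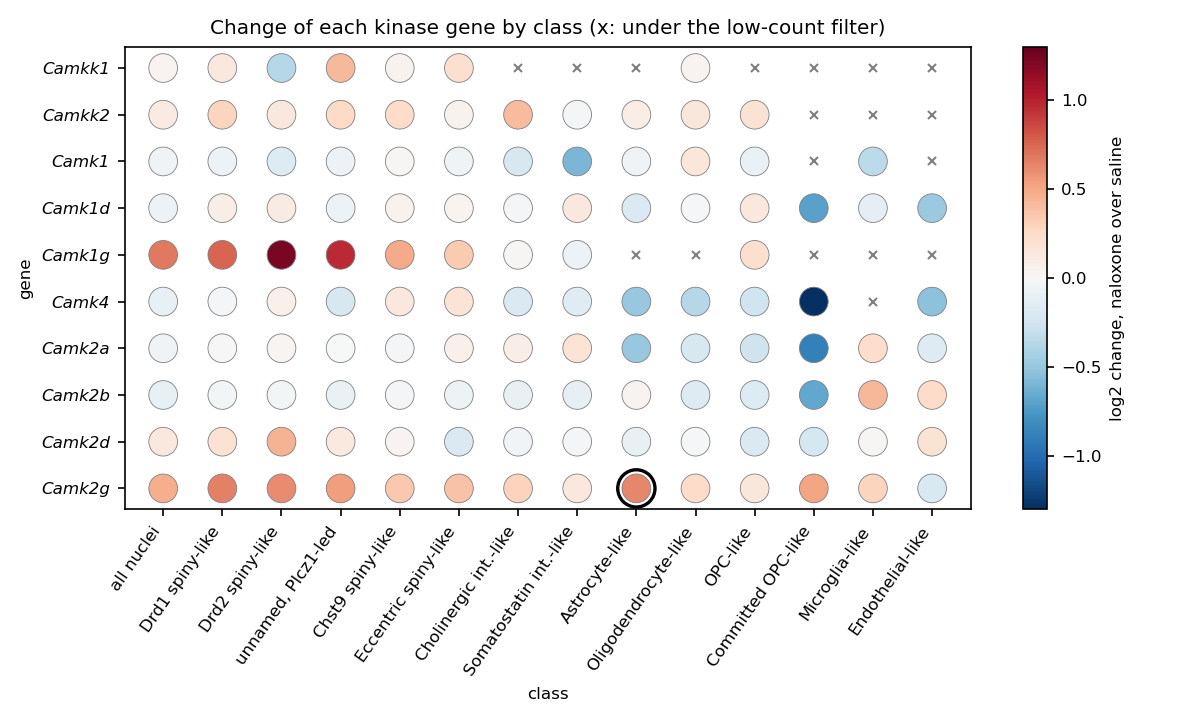
Fitted log2 change (naloxone over saline, colour) of each kinase gene (vertical axis) over all nuclei and in 13 classes or clusters (horizontal axis); a black ring marks an edgeR adjusted p under 0.05, not drawn for Camk1g, and a cross marks a gene under the filter on low counts. Camk1g and Camk2g are positive in most columns, and the ring is on Camk2g in astrocyte-like nuclei, at 0.64.

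The wider pathway was followed through 39 listed genes that bind calmodulin, restrain or relate to these kinases, or lie downstream, 38 of which were in the files. Over all nuclei 37 were tested and 0 were called in edgeR (7 at an unadjusted p under 0.05), with a median log2 change of -0.06 beside 0.01 over all genes. The calmodulin genes and calmodulin buffers (6 tested) and the CaMKII inhibitors and scaffolds (4 tested) gave 0 calls in either direction there and 0 genes at an unadjusted p under 0.05. In Drd1-like and Drd2-like nuclei 0 of 36 listed genes were called in each (8 and 10 at an unadjusted p under 0.05; 0.153% and 0.675% of all genes called). These shares of all genes are at the adjusted threshold, so they are no background for the counts at an unadjusted p. Those counts, here and over all nuclei, are not read as an excess. DESeq2 called 1 listed gene over all nuclei, Dclk3, 0 in Drd1-like nuclei and 2 in Drd2-like nuclei, Dclk1 and Calm2. The listed genes that edgeR called in the naloxone comparison were in glia and in the Itga11-led cluster.

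Rcan2, an inhibitor of calcineurin, the calcium/calmodulin-dependent phosphatase that opposes many CaMK actions, rose in oligodendrocyte-like nuclei. It stood at 481, 550.3 and 551 CPM in the saline libraries and at 1259, 1604 and 1494 CPM in the naloxone libraries. The groups did not overlap, the log2 change was 1.45 ± 0.11 (SE; edgeR adjusted p = 0.000136), and 0.85% of genes were called in that class. With nuclei gated one by one on marker UMIs the change was 0.74 (edgeR adjusted p = 0.0148). The class by treatment term was 1.49 ± 0.11 (edgeR adjusted p = 9.79e-09; 0.653% called). In oligodendrocyte precursor-like nuclei Rcan2 stood at 124, 139 and 156 CPM against 186, 242 and 209 CPM (log2 change 0.59 ± 0.12, edgeR adjusted p = 0.0183; 0.367% called), a call lost without saline replicate 1, 2 or 3 or naloxone replicate 5 or 6, with gated nuclei (0.41, edgeR adjusted p = 0.717) and with sums by sex (0.55, edgeR adjusted p = 0.0699).

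Eef2k, a calmodulin-dependent kinase that slows translation by phosphorylating elongation factor eEF2, rose in microglia-like nuclei, the class where it is most abundant. It stood at 209, 104 and 180.3 CPM after saline and at 559.9, 638 and 557 CPM after naloxone, a log2 change of 1.85 ± 0.19 (SE; edgeR adjusted p = 5.00e-05; 0.227% called) and a class by treatment term of 1.86 ± 0.18 (edgeR adjusted p = 8.89e-20; 0.132% called). In oligodendrocyte-like nuclei Eef2k went the other way, at 48.7, 48.2 and 39.7 against 37.2, 23.1 and 35.2 CPM, with a class by treatment term of -0.67 ± 0.16 (edgeR adjusted p = 0.0451; 0.653% called), a call lost without saline replicate 1 or 3 or naloxone replicate 5.

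In the Itga11-led cluster (424 nuclei), where 3.05% of genes were called, Arhgef7, a Rac and Cdc42 exchange factor phosphorylated by CaMKI, went from 99.6 ± 9.78 to 162 ± 17.7 CPM (log2 change 0.73 ± 0.16, edgeR adjusted p = 0.0119). Dclk1, a doublecortin-like kinase related to the CaMK family, went from 1489.5 ± 105 to 2030.0 ± 163 CPM there (log2 change 0.49 ± 0.10, edgeR adjusted p = 0.00907). Both calls were lost without saline replicate 1 or 3 or naloxone replicate 6. Set against the other neurons, which leave out Drd1-like and Plcz1-led nuclei, Drd2-like nuclei differed in Dclk1 by 0.25 ± 0.05 (edgeR adjusted p = 0.0483). Set against Drd1-like nuclei, they differed in Pcp4, a small protein that binds calmodulin, by -0.33 ± 0.07 (edgeR adjusted p = 0.0158; 1.19% called). In astrocyte-like nuclei the class by treatment term passed for Crtc3, a CREB coactivator (0.51 ± 0.12, edgeR adjusted p = 0.0235), and Dclk3 (1.16 ± 0.26, edgeR adjusted p = 0.0103; 7.96 ± 3.61 against 14.5 ± 3.95 CPM), with 0.611% of genes called. In the Slc17a8-led cluster it passed for Hdac5, a histone deacetylase exported from the nucleus when CaM kinases phosphorylate it (-0.49 ± 0.13, edgeR adjusted p = 0.0437; 75.3 ± 5.86 against 54.8 ± 4.66 CPM; 0.335% called). The Hdac5 call was lost with any library left out, the Crtc3 call without saline replicate 1 or 3 or naloxone replicate 5 or 6, and the Dclk3 call without saline replicate 1 or 3 or naloxone replicate 6.

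**Figure D5:**
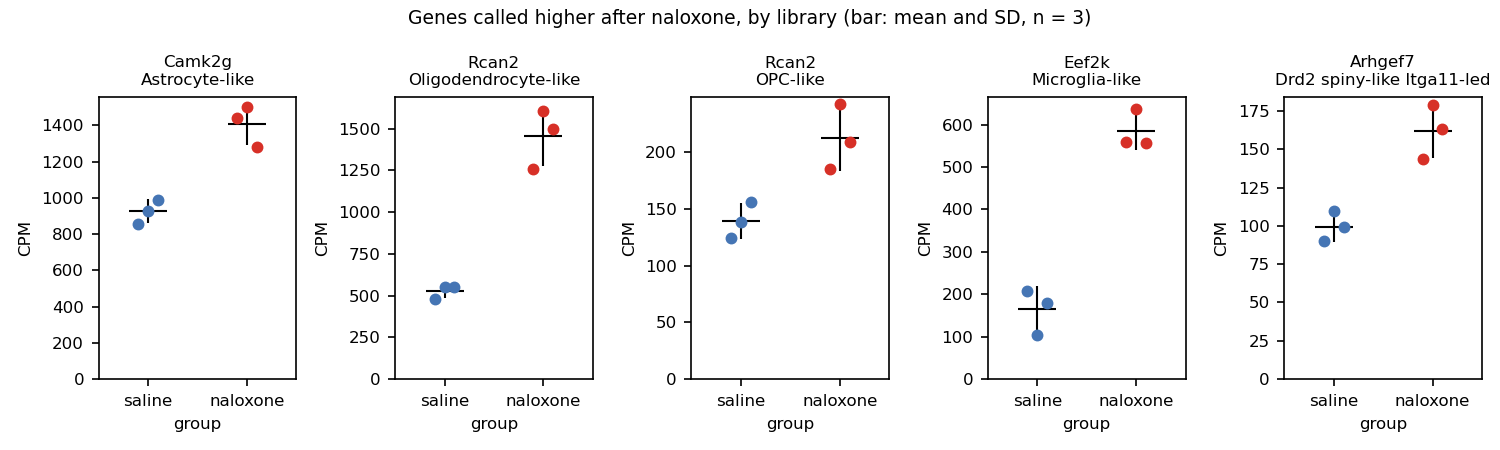
Level (CPM, vertical axes from 0) in each saline (blue) and naloxone (red) library of Camk2g in astrocyte-like, Rcan2 in oligodendrocyte-like and oligodendrocyte precursor-like, Eef2k in microglia-like and Arhgef7 in Itga11-led nuclei, with mean and SD (n = 3). The groups do not overlap in any panel, and Rcan2 in oligodendrocyte-like nuclei runs from 481 to 551 CPM after saline and from 1259 to 1604 CPM after naloxone.

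The genes whose class pattern was most like that of Camk1g were Lonrf2 (Pearson r = 0.897), Cys1 (0.889), Usp29 (0.884), Slc8a3, a sodium/calcium exchanger (0.884), and D430041D05Rikl (0.878). These correlations are over the log2(mean CPM + 1) of 24 classes and clusters of the same libraries, which also share their depth differences, and are a description. Within the family, Camk2b (0.746) and Camk4 (0.687) had the pattern most like it, and Camk2g had r = -0.37.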

How the data were processed

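The deposited values are counts of UMIs per gene and barcode, made per the submitters' processing notes with Cell Ranger 9.0.1 and mRatBN7.2. The annotation release and the counting of intronic reads are not given in the sources used here. The kinase genes, the pathway and marker lists and the tests were chosen with earlier results of these data known.

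A nucleus was kept if it had 500 or more genes and no more than 5% mitochondrial UMIs. Doublets were called per library with Scrublet in scanpy 1.11.5 at 0.4% per 1000 nuclei, and 2649 (4.30%) were removed. Nuclei were clustered on 3000 variable genes (40 principal components, 15 neighbours, Leiden resolution 1.0), without the kinase, pathway, sex-linked and mitochondrial genes. A cluster was named when at least 3 markers of a class were detected and its leading genes did not go against them, and set aside as mixed when over 15% of its nuclei had Xist and Y-linked UMIs. The names were rebuilt here and may differ from the authors'.

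UMI counts were summed per library and class (at least 20 nuclei in each library). edgeR 4.0.16 (quasi-likelihood F-test, TMM factors, filterByExpr) was run over all genes, p-values were adjusted by Benjamini-Hochberg over the genes of a fit, and a gene was called at an adjusted p under 0.05. Class by treatment and sex by treatment terms had the library as a block. A log2 change is naloxone over saline. The edgeR naloxone fits and the Drd2-like class by treatment term were tested on simulated data in which 200 genes differed by a log2 of 1. In the naloxone fits 85.0% were recovered over all nuclei (10 false calls), 86.0% in Drd2-like and 78.5% in astrocyte-like nuclei. Recovery was 54.5% in cholinergic-like, 29% in endothelial-like and 19.5% in committed precursor-like nuclei, so few or no calls there say little. The other fits were not simulated. Shares of nuclei with a UMI are given without a test. Limits for a count of 0 stand for 3 counts in a library.

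The text names all 10 kinase genes, each pathway gene called in a fit described, and the 5 genes most like Camk1g over classes with at least 10 CPM in one. Alternatives were DESeq2 1.42.0, RLE factors, leaving out 1 library at a time, dropping the low-count filter, a minimum of 1000 genes, keeping called doublets, gating nuclei one by one on marker UMIs, holding class shares at their mean, and a sex covariate on sums split by sex. P-values of the naloxone fits measure the spread between libraries, which pool rats. Those of the class by treatment and sex by treatment terms measure how the difference within a library varies between libraries. Fits of 1 sex used the sums of that sex in each library. In the sex covariate run the female and male sums of a library entered as separate replicates, without the library as a block.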

Additional observations from a re-analysis of the deposited data

Results flagged for a closer look

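The change of Camk1g differed between Drd2-like nuclei and the other nuclei of the same libraries by 0.63 ± 0.12 on the log2 scale (SE; edgeR adjusted p = 0.0284), by the class by treatment term. With each library left out the edgeR adjusted p ran from 0.00221 to 0.159, and 1 of these runs passed. The naloxone level of Camk1g chose the family, so its terms are not independent of that choice. The larger cluster of that class, the Drd2-led cluster, gave 0.57 ± 0.12 (edgeR adjusted p = 0.0413). Set against the other neurons alone, without Drd1-like and Plcz1-led nuclei, the class gave 0.80 ± 0.14 (edgeR adjusted p = 0.0147), a comparison chosen after seeing the data. Against Drd1-like nuclei alone the difference did not pass. The change of Camk2d in Eccentric-like spiny neurons differed from that in the other nuclei by -0.35 ± 0.09 (SE; edgeR adjusted p = 0.0274). With each library left out its edgeR adjusted p ran from 0.00177 to 0.613, and 2 of these runs passed.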

How the results depend on the processing

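No paired analysis was possible because the saline and naloxone libraries share no replicate numbers. With 3 libraries a group, calls near the threshold move with single libraries, and low counts limit Camk1g in glia and Camkk1 throughout. No value called in the naloxone comparison or a class by treatment term changed sign under an alternative run. Changes over all nuclei that were not called did so for Camk1 (0.00067), Camk2a (0.04) and Camk4 (0.02) without naloxone replicate 4, for Camkk1 (-0.03 and -0.06) without saline replicate 2 or naloxone replicate 5, and for Camkk2 (-0.11) without naloxone replicate 5.

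The Camk1g log2 change was 0.63 to 0.72 over all nuclei, 0.66 to 0.87 in Drd1-like, 1.16 to 1.35 in Drd2-like and 0.88 to 1.02 in Plcz1-led nuclei with each library left out. Its Drd2-like class by treatment term was 0.54 to 0.73 with each library left out, and 0.49 against Drd1-like nuclei alone, a comparison chosen after seeing the data. The Camk2d term in Eccentric-like nuclei was -0.45 to -0.27. Camk2g over all nuclei passed in DESeq2 (0.47) and with no filter on low counts (0.47), and was 0.41 to 0.51 with each library left out, passing without naloxone replicate 5. In the Atp13a4-led astrocyte-like cluster alone it was 0.40 and did not pass. Camk4 over all nuclei passed without naloxone replicate 5, at -0.33 (edgeR adjusted p = 0.0415).

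Over 12 named classes the fits put 3 pairs of kinase gene and class under the threshold. Of these, 1 is Camk2g in astrocyte-like nuclei (0.908% of all genes called there). The other 2 are Camk1g in Drd1-like and Drd2-like nuclei (0.153% and 0.675% of all genes called there). The naloxone difference of Camk1g in these same libraries chose the family, so these 2 pairs are no test and are not read as calls. The count of pairs, with Camk1g left in, was 6 with no filter and 2 to 4 with each library left out. It describes the processing only and is no test of the family. Genes called over all nuclei numbered 9, against 373 in DESeq2, 14 with RLE factors, 41 with no filter, 0 with at least 1000 genes per nucleus, 14 with called doublets kept, 76 with sums by sex, and 0 to 238 with each library left out. In Drd1-like nuclei they numbered 20, against 83 in DESeq2, 358 with no filter, 128 with sums by sex, 1 with gated nuclei, and 1 to 80 with each library left out. In Drd2-like nuclei they numbered 85, against 156 in DESeq2, 499 with no filter, 46 with gated nuclei, and 16 to 127 with each library left out. In astrocyte-like nuclei they numbered 100, against 333 with no filter, 54 with gated nuclei, and 30 to 128 with each library left out. The runs with sums by sex took the female and male sums of a library as separate replicates. The cause of these shifts was not tested.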
